A study of Homo sapiens with 10 samples.

Results

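The replication-dependent histone genes encode the bulk histones that package newly made DNA. They were taken as the protein-coding genes with the symbols H1-1 to H1-6, or H2AC, H2BC, H3C or H4C followed by a number, and 34 of the 57820 gene identifiers in each file met this rule. The 34 comprised 6 linker H1 genes, 9 H2A genes, 10 H2B genes, 5 H3 genes and 4 H4 genes. By their older names, 23 lay in the HIST1 cluster, 8 in HIST2, 2 in HIST3 and 1 in HIST4. Another 35 symbols of the same kind had no matching identifier and were not analysed here. Their counts were compared between libraries of D425 and HD-MB03 cells, human lines of Group 3 medulloblastoma, a childhood tumour of the cerebellum, with and without a short hairpin RNA against CRX, a photoreceptor transcription factor. For D425 there were 3 shCRX libraries, 2 of the parental line and 1 with the empty vector; for HD-MB03 there were 2, 1 and 1. The hairpin and the empty vector were carried in stable polyclonal pools in a doxycycline-inducible lentiviral vector, and the labels give 4 µg/ml doxycycline for 72 h. All libraries were made from poly(A)-enriched RNA. Parental and vector libraries served jointly as the controls of their line, and the labels do not say which of the hairpins each library carries. Nor do they name separate cultures within a group, so the p-values speak of the spread among these libraries alone, and that spread may be technical.

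Core histones H2A, H2B, H3 and H4 form the protein spool of the nucleosome, and linker histone H1 binds where the DNA enters and leaves it. Replication-dependent histone genes lie in clusters, have no introns in their main form and are transcribed mostly in S phase. Their mRNAs normally end just after a conserved stem-loop that the stem-loop binding protein holds, and carry no poly(A) tail, but a number of these genes can also be read through to a downstream poly(A) site. A poly(A)-enriched library is therefore built to capture the second kind of transcript and to leave out most of the first.

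The stem-loop is shown because the absence of a tail after it separates these mRNAs from other mRNAs. In GENCODE 29 transcripts, 17 of the 34 members held the 16-base histone stem-loop consensus, with free bases at several places in stem and loop, on the sense strand, against 0.683% of 19922 protein-coding genes (136 genes, members included). Some of the other members have a GENCODE model that holds the coding sequence alone. The core was the same in 11 members, and 3 other spellings were found. Examples follow, 5′ to 3′, with the 16-base stem-loop in capitals and 5 bases to each side; the first 2 belong to genes that fell in HD-MB03, and the last 3 to genes that did not pass there.
H2BC13: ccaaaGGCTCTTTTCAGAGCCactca
H2BC18: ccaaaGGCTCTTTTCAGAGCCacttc
H2BC21: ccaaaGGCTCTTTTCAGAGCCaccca
H2BC4: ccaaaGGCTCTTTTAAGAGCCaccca
H4C8: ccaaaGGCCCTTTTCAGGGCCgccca

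Members were also sorted by how far their annotation reaches. A member was called extended where its longest GENCODE 29 transcript or its RefSeq extent (GRCh38.p14) reached more than 250 bases beyond its coding length, and short otherwise, a division chosen after counts had been seen. There were 16 extended and 18 short members. The short members nearest the limit were H2BC1, with 185 further bases, and H2AC18, with 156, and the extended ones nearest it were H2AC25, with 502, and H2BC11, with 569. RefSeq extents are lengths on the genome and can include introns. H2BC12 and H3C4 are extended by this extent alone, as their GENCODE transcripts, of 381 and 411 bases, hold only the coding sequence. By transcript, H2BC4 (659 bases, 381 of them coding) and H2BC5 (789 bases, 381 coding) lie nearer the limit than H2AC25. Of the 16 extended members, 12 had a poly(A) signal, AATAAA or ATTAAA, in the last 60 bases of a transcript.

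The promoters are shown because neighbouring histone genes share them. RefSeq (GRCh38.p14) start sites were found for 32 members, and the 250 bases before each were searched on both strands. The CCAAT box (CCAAT) was in 29 of the 32 (90.6%), against 32% of 35116 promoters of this length. The TATA box (TATAAA) was in 23 (71.9%), against 10.7%. The octamer (ATTTGCAT), the classical element of H2B genes, was in 12 (37.5%), against 1.63%, and all 12 were H2A or H2B genes, 6 of 9 and 6 of 10. The H1 box (AAACACA) was in 6 (18.8%), against 4.82%, and these were the 6 H1 genes. TATAAA matches of opposite strands could overlap each other, and a match is a description of letters, not a mapped site.

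A total of 6 pairs of members stood head to head on opposite strands with their windows overlapping: H2AC11 with H2BC11, H2AC13 with H2BC13, H2AC20 with H2BC21, H2AC6 with H2BC4, H2AC1 with H2BC1 and H2AC25 with H2BC26. H2AC20 and H2BC21 are shown because they share 235 bases of promoter but differ in form, H2AC20 being short and H2BC21 extended. The window is chr1:149886668-149886917 on the plus strand, ending before the H2AC20 start, and capitals mark the 4 motifs above. H1-2 (chr6:26056471-26056720, minus strand) and H1-4 (chr6:26156079-26156328, plus strand) are shown because both hold the H1 box and their HD-MB03 differences had opposite signs.
H2AC20: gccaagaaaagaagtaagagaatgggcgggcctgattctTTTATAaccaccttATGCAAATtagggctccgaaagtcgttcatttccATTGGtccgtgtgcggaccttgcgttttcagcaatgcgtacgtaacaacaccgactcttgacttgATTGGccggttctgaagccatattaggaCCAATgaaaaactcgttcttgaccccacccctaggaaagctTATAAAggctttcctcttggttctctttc
H1-2: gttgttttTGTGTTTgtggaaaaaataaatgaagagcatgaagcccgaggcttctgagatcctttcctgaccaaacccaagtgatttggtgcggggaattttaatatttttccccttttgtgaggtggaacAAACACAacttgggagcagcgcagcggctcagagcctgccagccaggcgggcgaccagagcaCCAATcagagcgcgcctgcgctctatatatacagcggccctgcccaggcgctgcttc
H1-4: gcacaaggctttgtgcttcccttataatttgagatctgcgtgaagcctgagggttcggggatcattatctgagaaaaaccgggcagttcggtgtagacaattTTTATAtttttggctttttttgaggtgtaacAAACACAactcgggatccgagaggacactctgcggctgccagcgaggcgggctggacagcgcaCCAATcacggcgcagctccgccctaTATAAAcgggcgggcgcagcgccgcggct

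Counted reads ranged from 1.96 to 18.06 M per library. The HD-MB03 controls stood apart from the other 8 libraries: they were the shallowest, 26.41% and 30.9% of their reads did not align against 4.538% to 7.994% elsewhere, and 3 counts in them were worth 1.53 and 1.44 CPM, the usual unit of counts scaled to a common library size. The number each library carries in the deposited names was 20 to 62 for the D425 shCRX and HD-MB03 control libraries and 110 to 136 for the others, so within a line this numbering and the arm cannot be told apart. CRX, the targeted gene, fell in D425 (edgeR adjusted p = 0.0436). In HD-MB03 it went against the label, with 12.5 and 12.3 CPM in the controls and 27.7 and 23.45 CPM in the libraries labelled shCRX (adjusted p = 0.174). Of 8 Group 3 marker genes, 7 or 8 had counts in every library. Markers of other cell types summed to at most 16.6 CPM for fibroblasts, 14.7 CPM for blood and microglia and 1.72 CPM for endothelium in any library, and CD3E and AIF1, which mark T cells and microglia, had no count.

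Levels are given in CPM, with each library's total adjusted by its TMM scaling factor. They are compared between libraries for 1 gene at a time, not between genes, since no length was applied. Of the 34 members, 22 passed the low-count filter and were tested, and 12 did not. Of those 12, 4 had no count in any library (H1-1, H2AC1, H2AC7 and H2BC1), and the other 8 held 59 counts in all, 32 of them in the HD-MB03 controls. The untested members with most counts in their classes were H1-6 with 1 count, H2AC21 with 11, H2BC26 with 23, H3C13 with 9 and H4C11 with 3. H2AC21, an H2A gene, had 10 of its 11 counts in the HD-MB03 controls, H3C13 had 8 of its 9 there, and H2BC26 had 5 of its 23. The 34 members held 15091 counts in all 10 libraries, and 5 of them (H1-2, H2BC12, H2BC21, H2AC25 and H2AC6) took 75.05% of these.

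Which members passed the filter depended on the HD-MB03 controls. Without those libraries 14 members would have passed, and 8 passed through them alone (H1-3, H1-4, H1-5, H2AC20, H2BC13, H3C4, H3C12 and H4C3). A gene let in by the group in which it is high had to differ, so the counts and medians over the 22 below describe the members that passed and are not support for a direction. Reads from near-identical copies limit the counts too. Between 3.543% and 5.022% of reads per library did not align uniquely and were not counted. Of the 50-base windows in the longest GENCODE 29 transcript of a member, another gene's transcript held 100% for H3C4, H3C14, H3C15 and H2AC18, 74.1% for H2BC12 (a coding-only model) and 62.3% for H2AC13. The share was 13.9% for H2BC18, 10.9% for H2BC13 and 0% for each of the 6 H1 genes, H4C3 and H4C8. The counts of H3C4 are therefore uncertain as to their gene. RefSeq extents also overlapped another gene for H3C4 (H2AC7), H2BC12 (H4C9), H2BC5 (H2BC6-AS1 and LARP1P1) and H2BC18, which fell in HD-MB03 (FCGR1A and LOC124904411), and the reads of such pairs may not be told apart.

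**Figure D1:**
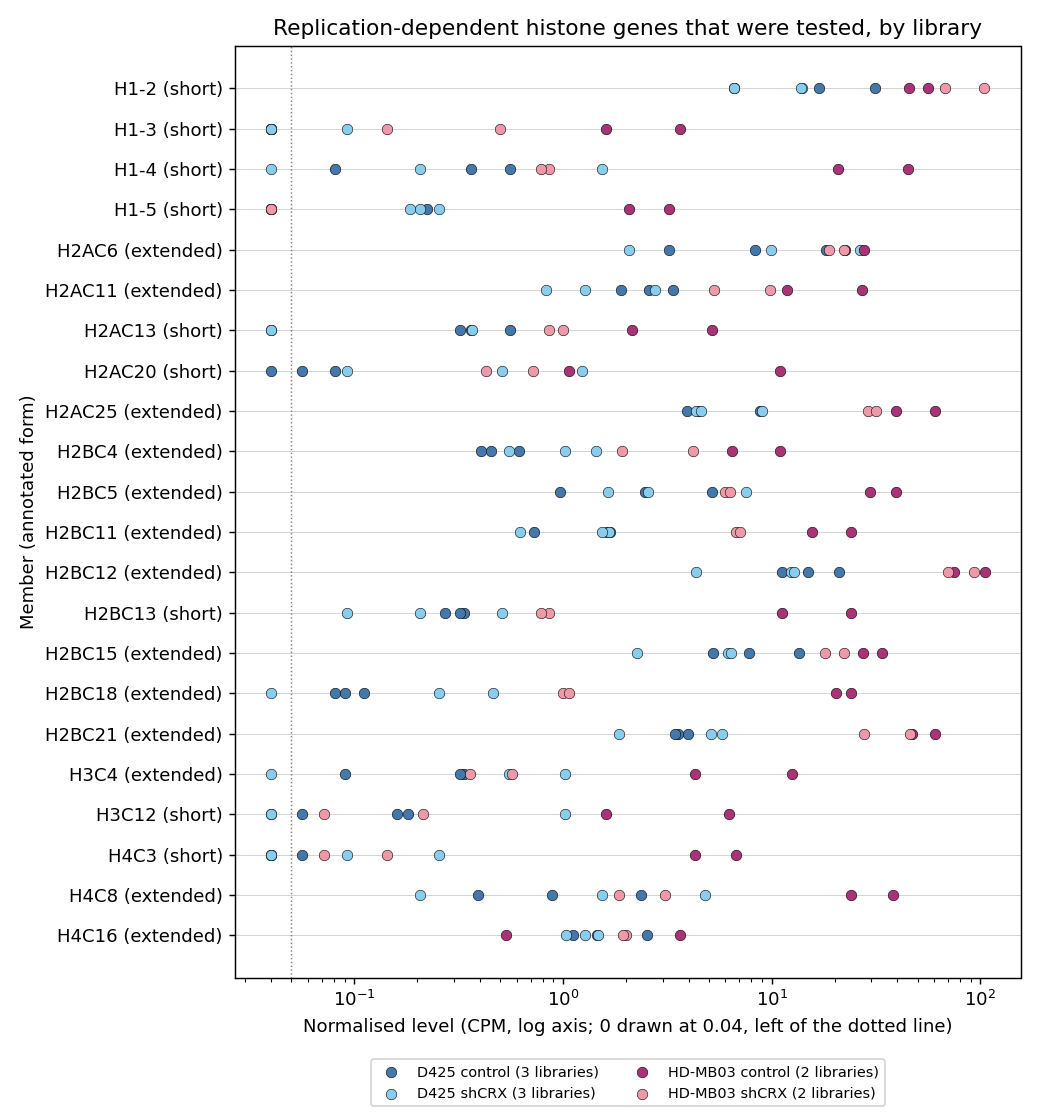
Level of each of the 22 tested members in every library, in CPM on a log axis, with 1 point per library coloured by line and arm and values of 0 drawn at the left edge. For H1-4, H2BC13, H2BC18 and H4C3 the 2 HD-MB03 controls lie far to the right of the other 8 libraries, while for H1-2 and H2BC12 all 4 HD-MB03 libraries lie to the right of D425.

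The first comparison asked which histone genes differed between the libraries labelled shCRX and the controls in HD-MB03. Here 6 of the 22 tested members fell and 0 rose, while 1.51% of all 16006 tested genes passed in either direction and 1.24% passed as lower (edgeR quasi-likelihood test, two-sided, Benjamini-Hochberg adjusted p under 0.05 over all tested genes). The 6 were the linker histones H1-4 and H1-5, the H2B genes H2BC13 and H2BC18, H3C4 and H4C3. Of these, H2BC18 alone would have passed the filter without the HD-MB03 controls. The median log2 fold change was -2.23 over the 22 members and 0.10 over all tested genes. In bulk RNA, fewer cells that express a gene and less RNA per cell cannot be told apart.

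H1-4, a linker histone found in most cell types, measured 45.2 CPM in the parental and 20.9 CPM in the vector library, against 0.856 and 0.787 CPM in the libraries labelled shCRX. The groups did not overlap, and on the log2 scale they differed by -5.31 ± 0.95 (SE, edgeR adjusted p = 0.0190). H1-5 had 2.08 and 3.21 CPM in the controls and 0 counts in both libraries labelled shCRX. Set against a floor of 3 counts over both of these libraries, its 10 control counts gave a 23.8-fold difference (edgeR adjusted p = 0.0328). That figure allows for no counting error in the 10 counts.

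The other H1 genes did not pass. H1-3 measured 3.64 and 1.61 CPM in the controls and 0.4995 and 0.143 CPM in the libraries labelled shCRX (adjusted p = 0.155). H1-2, the member with most counts, had the opposite order: 45.7 and 56.2 CPM in the controls and 68.0 and 105 CPM in the libraries labelled shCRX. It was the single tested member whose libraries labelled shCRX all lay above the controls, and the log2 difference of 0.76 ± 0.56 did not pass (SE, edgeR adjusted p = 0.523).

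Among H2A genes, whose proteins pair with H2B in the nucleosome, 0 of 5 tested members passed. H2AC20 measured 10.9 and 1.07 CPM in the controls and 0.428 and 0.715 CPM in the libraries labelled shCRX, so that the parental library alone stood far above the rest (adjusted p = 0.128). The extended H2AC6, H2AC25 and H2AC11 had log2 fold changes of -0.29, -0.73 and -1.36. For H2AC6 the values were close throughout, 27.5 and 22.5 CPM in the controls and 18.8 and 22.2 CPM in the libraries labelled shCRX. H2AC13 stood at 5.20 and 2.14 CPM against 0.999 and 0.858 CPM (adjusted p = 0.233).

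Among H2B genes, 2 of 8 tested members fell. H2BC18 measured 23.9 and 20.3 CPM in the controls and 0.999 and 1.07 CPM in the libraries labelled shCRX, lower by the log2 value -4.40 ± 0.61 (SE, edgeR adjusted p = 0.00532). H2BC13 measured 23.9 and 11.2 CPM against 0.856 and 0.787 CPM, also -4.40 (± 0.63 SE, edgeR adjusted p = 0.00627). In both genes the groups were far apart. H2BC5 measured 39.5 and 29.4 CPM against 5.99 and 6.29 CPM, and the difference of -2.49 ± 0.70 did not pass (SE, edgeR adjusted p = 0.105).

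The H2B genes with most counts differed less. H2BC12 measured 105.0 and 74.4 CPM in the controls and 70.2 and 93.4 CPM in the libraries labelled shCRX; these ranges overlapped, and the difference was -0.13 ± 0.41 (SE, edgeR adjusted p = 0.898), with a 95% interval of -1.02 to 0.75. H2BC21 measured 60.3 and 47.1 CPM against 46.2 and 27.6 CPM (-0.54 ± 0.38 SE, edgeR adjusted p = 0.499). H2BC15, H2BC11 and H2BC4 had differences of -0.60, -1.51 and -1.49, with adjusted p of 0.154 to 0.543.

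Of the H3 and H4 genes, whose proteins form the tetramer at the nucleosome core, 1 of 2 and 1 of 3 tested members fell. H3C4 measured 12.5 and 4.28 CPM in the controls and 0.571 and 0.3575 CPM in the libraries labelled shCRX (-4.14 ± 0.90 SE, edgeR adjusted p = 0.0414). H4C3 had 21 counts in the controls and 3 in the libraries labelled shCRX, and its ratio of 49.9 had a counting interval of 14.9 to 261.5 (95%, exact, counting error alone; edgeR adjusted p = 0.0132). H4C8 measured 37.9 and 24.1 CPM against 3.07 and 1.86 CPM, and at -3.65 ± 0.92 it did not pass (SE, edgeR adjusted p = 0.0788). H3C12 had 15 counts in the controls and 4 in the libraries labelled shCRX (adjusted p = 0.0917). H4C16, the single gene of the HIST4 cluster, measured 3.64 and 0.535 CPM in the controls and 2.00 and 1.93 CPM in the libraries labelled shCRX, so the groups overlapped.

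By form, 2 of 13 extended and 4 of 9 short members fell, but the filter set this contrast. Of the 9 short members 7 passed it through the HD-MB03 controls alone, among them the 4 that fell, against 1 of the 13 extended members, H3C4. The form of H3C4 rests on its RefSeq extent alone. Among those that passed without these controls, 1 of 12 extended and 0 of 2 short members fell. In 19 of the 22 members every library labelled shCRX lay below both controls, against 21.8% of all tested genes; in 1, H1-2, they lay above, against 30.5%; and in H2BC12 and H4C16 they overlapped. Of the 14 members that passed the filter without the HD-MB03 controls, 11 lay below, 1 fell by the test, and the median was -1.05.

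The HD-MB03 calls rested on few libraries. The count of 6 went to 0 without the parental library, to 0 without the second library labelled shCRX and to 2 without the first. With the parental library as the single control 1 member fell, and with the vector library as the single control 0 did, the lone control being assumed to vary like the other groups.

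**Figure D2:**
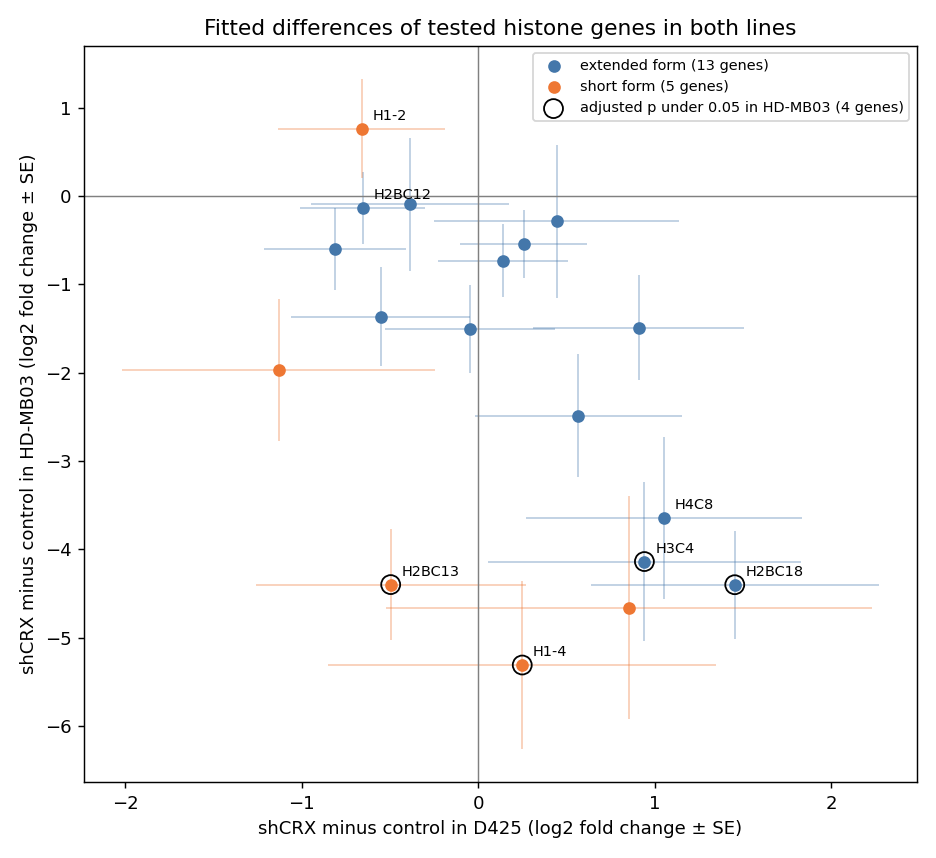
Log2 fold change of shCRX against control libraries in D425 (horizontal) and HD-MB03 (vertical), with SE bars, for the 18 tested members that had more than 3 counts in every group of libraries; colour gives the annotated form and a ring marks an adjusted p under 0.05 in HD-MB03. The horizontal values lie on both sides of 0, and all vertical values but that of H1-2 lie below 0, with H1-4, H2BC13, H2BC18 and H3C4 ringed.

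The same members were then summed per library to set them beside the percentage of unaligned reads. The extended members together measured 471 and 324 CPM in the HD-MB03 controls and 218 and 221 CPM in the libraries labelled shCRX. The short members without H1-2 measured 111 and 50.3 CPM in these controls and 4.07 and 3.86 CPM in the libraries labelled shCRX. In D425 the same short members summed to 0.922 to 4.09 CPM and the extended ones to 20.65 to 80.7 CPM. H1-2 was set apart after its values were seen, because it holds most short-member counts and has the opposite order. With all 18 short members the sums were 157 and 106.5 CPM in the HD-MB03 controls and 72.1 and 108.5 CPM in the libraries labelled shCRX, and these overlapped. So the short members separated the HD-MB03 controls from the other 8 libraries with H1-2 left out and not with it. The summed extended members separated these controls from the other 8 libraries too, and they also separated the lines.

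By class, the H2B genes summed to 324 and 232 CPM in the HD-MB03 controls and to 155.5 and 159 CPM in the libraries labelled shCRX, above the 12.4 to 45.65 CPM of D425. The H2A genes summed to 136 and 79.2 CPM in these controls and to 59.4 and 60.6 CPM in the libraries labelled shCRX, and D425 held 8.47 to 38.8 CPM. In both classes the controls lay above the libraries labelled shCRX and these lay above D425. The H3 genes summed to 23.4 and 8.03 CPM in the HD-MB03 controls and to at most 2.04 CPM in any other library. The H4 genes summed to 48.85 and 29.4 CPM in the controls and to at most 6.36 CPM elsewhere. For H3 and H4 the libraries labelled shCRX of HD-MB03 thus lay within the range of D425. The H1 sum measured 96.65 and 81.9 CPM in the controls and 69.4 and 106 CPM in the libraries labelled shCRX, which overlapped. H1-2 gave 45.7 and 56.2 CPM of it in the controls and 68.0 and 105 CPM in the libraries labelled shCRX. H1-4 gave 45.2 and 20.9 CPM in the controls and 0.856 and 0.787 CPM in the libraries labelled shCRX.

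As a share of all member counts, the short members without H1-2 made up 17.7% (95% exact interval 15.6% to 20.0%) and 11.7% (9.55% to 14.1%) in the HD-MB03 controls. In the libraries labelled shCRX of HD-MB03 the shares were 1.40% and 1.17%, and in D425 they ran from 0.971% to 6.38%. With H1-2 included, the short members made up 24.98% and 24.75% in the HD-MB03 controls, 24.85% and 32.9% in the libraries labelled shCRX and 15.6% to 29.1% in D425, so that the controls held no excess. The intervals cover counting error alone. With every library thinned to the counts of the shallowest, 29 and 27 of the 34 members had a count in the HD-MB03 controls and 13 to 19 in each of the other 8 libraries; before thinning the numbers there were 16 to 25.

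Other RNAs that lack a poly(A) tail in their mature form were set beside the short members. From a list of 35 such genes, 27 were found in the files and 8 were tested. Their median in HD-MB03 was -2.32, and 0 passed there, against 1.51% of all tested genes. The filter bore on this median too. SCARNA7 passed through the HD-MB03 controls, with 1.56 and 3.21 CPM there and at most 0.161 CPM elsewhere. The median describes the genes that passed and is not support for a direction. MALAT1 held 774 of the list's 967 counts in the parental and 1605 of 1684 in the vector library of HD-MB03. With it, the list summed to 502.5 and 901.5 CPM in these controls, in that order. The libraries labelled shCRX then stood at 157.8 and 156.5 CPM, and D425 at 39.5 to 299.6 CPM. MALAT1 is left out of the sums and counts of the list that follow. Without it, the list summed to 100.3 and 42.3 CPM in the HD-MB03 controls and to 7.85 and 10.0 CPM in the libraries labelled shCRX. RMRP alone gave 134 of the 193 counts of the list in the parental library and 38 of the 79 in the vector library. SNORD17 and SCARNA13 had the opposite order, SNORD17 with 0.52 and 1.07 CPM in the controls and 1.64 and 1.36 CPM in the libraries labelled shCRX. In D425 the list summed to 36.3 CPM in shCRX library 3 and to 4.27 to 10.3 CPM in the other 5. RMRP, the RNA of an RNase, measured 69.6 and 20.3 CPM in the HD-MB03 controls, 10.98 CPM in D425 shCRX library 3, and 0.207 to 2.00 CPM elsewhere. SNORD3A, the U3 small nucleolar RNA, measured 14.55 and 6.42 CPM in the HD-MB03 controls, 11.75 CPM in D425 shCRX library 3 and 0.0806 to 0.908 CPM elsewhere.

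That D425 library also had the highest percentage of unaligned reads outside the HD-MB03 controls, 7.994%. Its short members without H1-2 summed to 4.09 CPM, on 16 counts, against 0.922 to 1.86 CPM in the other 5 D425 libraries. H1-4 with 6 counts and H3C12 with 4 gave most of these, H2AC13 and H1-3 had none, and H2AC20 stood lower than in shCRX library 2. The part of the unaligned reads, of depth and of the library numbers in the HD-MB03 differences was not tested, and within HD-MB03 they cannot be told apart from the hairpin.

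**Figure D3:**
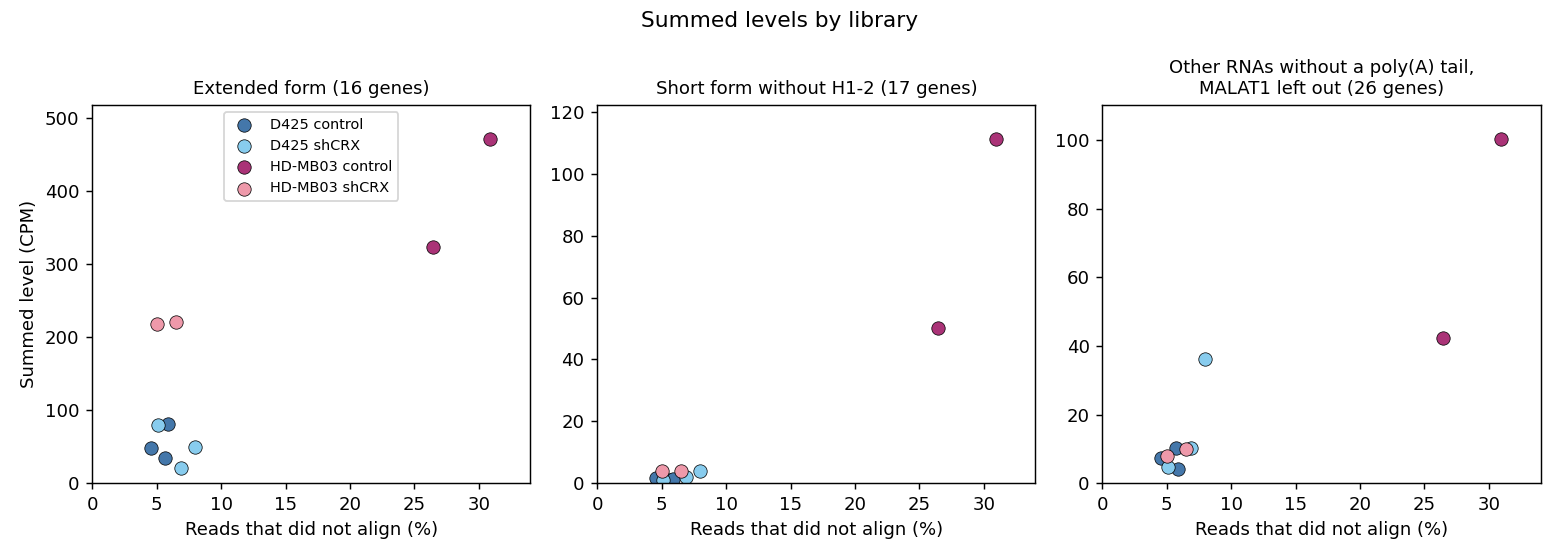
Summed CPM of the 16 extended members, of the 17 short members other than H1-2, and of 26 other RNAs without a poly(A) tail, MALAT1 left out, against the percentage of unaligned reads, with 1 point per library coloured by line and arm. The HD-MB03 controls, at 26.41% and 30.9% unaligned, stand highest in all 3 panels, and the libraries labelled shCRX of HD-MB03 lie near D425 in the panels of short members and other RNAs but above it in that of extended members.

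In D425, the second comparison, 0 of the 22 tested members passed, while 2.97% of all tested genes did (edgeR). At an unadjusted p under 0.05 there was 1 member, H2AC20, against 17.3% of all tested genes, and DESeq2 and limma-voom also called 0. The members' signs were split, 14 positive and 8 negative, with a median of 0.35 against 0.02 over all tested genes. Without H1-3 and H4C3, which had at most 3 counts in each arm, the median was 0.25.

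Differences between D425 libraries of the same arm were wide. H2AC6 measured 8.33, 3.22 and 18.2 CPM in the controls and 26.5, 2.07 and 9.96 CPM in the shCRX libraries, and each arm covered most of the range of the other. H2BC12 measured 14.9, 11.2 and 21.05 CPM in the controls and 12.4, 4.34 and 12.8 CPM in the shCRX libraries (-0.66 ± 0.36 SE, edgeR adjusted p = 0.376). H1-2 measured 16.9, 6.61 and 31.4 CPM against 13.9, 6.61 and 13.8 CPM (-0.66 ± 0.47 SE, edgeR adjusted p = 0.521). In all 3 genes the arms overlapped.

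Of the other leading members, H2AC25 had a D425 difference of 0.14 ± 0.37 (SE), with a 95% interval of -0.66 to 0.93, and H2BC15 one of -0.81 ± 0.40 (SE, edgeR adjusted p = 0.323). H2BC15 measured 7.77, 5.24 and 13.5 CPM in the controls and 6.17, 2.27 and 6.39 CPM in the shCRX libraries, and these overlapped. H2BC5 measured 2.46, 0.967 and 5.17 CPM in the controls and 7.56, 1.65 and 2.55 CPM in the shCRX libraries, so that 1 shCRX library alone lay above all controls.

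H2AC20 was the single tested member whose D425 arms did not overlap: it was at 0.0559, 0.0806 and 0 CPM in the controls and 0.0922, 1.24 and 0.511 CPM in the shCRX libraries. This rested on 2 counts in the controls and 9 in the shCRX libraries, a ratio of 10.5 with a counting interval of 2.18 to 100.1 (edgeR adjusted p = 0.223). Of all tested genes, 11.5% had every shCRX library above the controls and 11.5% had every one below; among the members there were 1 and 0. H2BC18 and H4C8, which stood high in the HD-MB03 controls, had positive differences in D425, 1.45 ± 0.82 and 1.05 ± 0.78 (SE), with edgeR adjusted p of 0.393 and 0.542. The 95% interval for H2BC18 ran from -0.31 to 3.22 and that for H4C8 from -0.66 to 2.76.

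The difference of the effects, D425 minus HD-MB03, passed as higher in 5 of the 22 members and as lower in 0, while 2.67% of all tested genes passed as higher (edgeR). They were H1-5, H2AC20, H2BC18, H3C4 and H4C8, of which only H2BC18 and H4C8 would have passed the filter without the HD-MB03 controls. For H2BC18 it was 5.85 ± 1.05 (SE, edgeR adjusted p = 0.0102), and the 95% interval ran from 3.57 to 8.13. For H4C8 it was 4.70 ± 1.19 (SE, edgeR adjusted p = 0.0484). This contrast also sets library numbers under 100 against those over 100. Its count fell from 5 to 0 without the HD-MB03 parental library, to 1 without the first D425 parental, D425 shCRX library 3 or either HD-MB03 library labelled shCRX, to 2 without the second D425 parental library, and to 3 without the D425 vector, the first D425 shCRX or the HD-MB03 vector library.

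In the mean of both effects, 0 of 22 members passed by edgeR, against 0.225% of all tested genes. At an unadjusted p under 0.05 there were 10, all negative, against 13.2% of all tested genes in either direction. The 8 members that passed the filter through the HD-MB03 controls alone were all negative here, with a median of -1.92. Of the other 14, 12 were negative, with a median of -0.55. The count of 10 is therefore not support for a direction. DESeq2 called 1 and limma-voom 0. H2BC13 had the lowest adjusted p, 0.0633, at -2.45 ± 0.48 (SE, edgeR). These contrasts use the same libraries as the comparisons within lines and are not separate evidence.

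The lines themselves were compared next. D425 was lower than HD-MB03 in 18 of the 22 tested members and higher in 0, averaged over both arms, while 21.6% of all tested genes passed as lower in D425 (edgeR). The median was -2.68, against 0.05 over all tested genes. Of the 22, 10 reached the filter's minimum through HD-MB03 alone and so had to be lower in D425; of the other 12, 10 were lower, with a median of -2.43. Not passing were H1-5, H2AC6, H3C12 and H4C16. All 8 tested H2B genes passed, with differences from -4.73 to -1.90.

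H2BC21, an H2B gene with a long annotated transcript, measured 3.97, 3.55 and 3.45 CPM in the D425 controls, 5.81, 1.86 and 5.11 CPM in the D425 shCRX libraries, and 27.6 to 60.3 CPM in HD-MB03, so that every HD-MB03 library lay above every D425 library. Its difference was -3.47 ± 0.26 (SE, edgeR adjusted p = 4.41e-07). H2AC25 measured 3.95 to 9.03 CPM in D425 and 29.04 to 60.8 CPM in HD-MB03 (-2.71 ± 0.28 SE, edgeR adjusted p = 6.83e-06). H2BC12 measured 4.34 to 21.05 CPM against 70.2 to 105 CPM, and H1-2 measured 6.61 to 31.4 CPM against 45.7 to 105 CPM. In each of these genes the lines did not overlap.

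Since arm and library numbers were paired in opposite ways in the lines, the difference was also taken within each set of numbers. Between the D425 shCRX libraries and the HD-MB03 controls, 15 of 16 tested members were lower in D425, against 13.8% of all tested genes, with a median of -3.56. Of these 16, 9 reached the filter's minimum through the HD-MB03 controls and not through D425, so their direction was given beforehand; of the other 7, 6 were lower, with a median of -3.04. Between the D425 controls and the libraries labelled shCRX of HD-MB03, 9 of 16 were lower, against 17.3%, with a median of -1.43. Here 11 reached the minimum in D425, and 7 of them were lower, with a median of -1.51. The same 9 members were lower in both sets: H1-2, H2AC11, H2AC25, H2BC4, H2BC11, H2BC12, H2BC15, H2BC18 and H2BC21, all extended but H1-2. Of the short members, H1-2, H1-4 and H2BC13 alone were tested in both sets, so the forms cannot be compared here. The share of all genes lower in both sets is not given, so the count of 9 has no background beside it.

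H2BC21 gave -3.65 and -3.30 in the 2 sets, and H1-2 gave -2.18 and -2.22, so these differences were nearly as large in either. H1-4 gave -6.30 and -1.18 and H2BC13 gave -6.22 and -1.34, and neither passed in the second set (edgeR adjusted p = 0.225 and 0.0981). With the HD-MB03 controls left out, 9 of 14 members were lower in D425. The share of all tested genes in that fit is not given here, so this count has no background beside it. For H4C8 the difference then went from -2.37 to -0.56 and for H2BC5 from -2.07 to -0.85, and neither passed (edgeR adjusted p = 0.604 and 0.288).

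**Figure D4:**
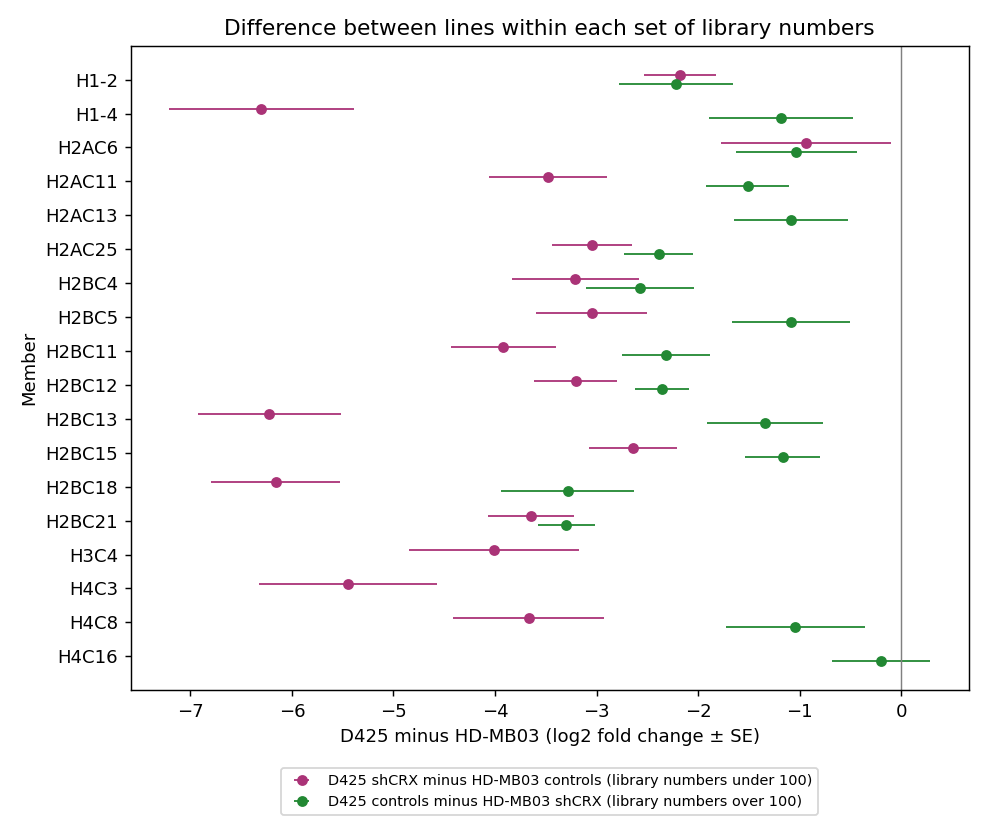
Log2 difference of D425 minus HD-MB03 with SE for the members tested in either set of library numbers; purple gives D425 shCRX against the HD-MB03 controls and green gives D425 controls against the libraries labelled shCRX of HD-MB03. All points lie below 0, and the sets lie close together for H1-2 and H2BC21 and far apart for H1-4 and H2BC13.

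The head-to-head pairs show members with the same promoter side by side. H2AC20 and H2BC21, whose shared window is printed above, had HD-MB03 differences of -3.37 ± 1.03 and -0.54 ± 0.38 (SE), with edgeR adjusted p of 0.128 and 0.499; the difference between the 2 genes was not tested. H2AC13 and H2BC13, both short, stood at -1.97 and -4.40. H2AC11 and H2BC11, both extended, stood at -1.36 and -1.51, and H2AC6 and H2BC4, both extended, at -0.29 and -1.49. In H2AC25 with H2BC26 1 gene was tested, and in H2AC1 with H2BC1 no library had a count. Of the H1 genes, which all hold the H1 box, H1-2 and H1-4 stood at 0.76 and -5.31. The printed H1-4 window holds TATAAA and the printed H1-2 window does not. The window of H1-5, which fell in HD-MB03, does not hold it either. Any part of these motifs in the differences was not tested.

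Genes that act with the histone genes were described from lists. Of 28 tested genes of S phase and DNA replication, in which histone genes are transcribed, 0 passed in D425, in HD-MB03, in the difference or in the mean, with medians of 0.07 in D425 and -0.02 in HD-MB03. MCM7, a subunit of the replicative helicase and the list's gene with the highest mean, had differences of 0.04 ± 0.34 in D425 and -0.57 ± 0.42 in HD-MB03 (SE). The same 4 comparisons gave 0 calls among 24 genes of histone mRNA 3′ end formation, 12 of histone mRNA decay, 16 of the histone locus body and histone transcription, 17 histone chaperones and 9 tested genes of poly(A) tail synthesis and binding. Their medians in HD-MB03 were -0.04, 0.20, -0.01, 0.02 and 0.41. Of all tested genes, 2.97% passed in D425, 1.51% in HD-MB03 and 0.225% in the mean, and 2.67% passed as higher in the difference. In lists of 9 to 28 genes, 0 calls are near these shares and do not show that the lists were unchanged. E2F1, a transcription factor of S-phase entry, had differences of 0.12 ± 0.38 in D425 and -0.26 ± 0.46 in HD-MB03 (SE), and its D425 minus HD-MB03 value was -1.58 ± 0.29 (SE, edgeR adjusted p = 0.00114). Between the lines the lists did give calls, against 21.6% lower and 24.4% higher in D425 among all tested genes. Lower and higher were 5 and 1 of the S-phase genes, 7 and 2 of the genes of 3′ end formation, 1 and 0 of decay, 9 and 4 of the locus body, 4 and 1 of the chaperones and 4 and 0 of the poly(A) genes. Of the 28 S-phase genes 25 were negative.

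Replacement and variant histones, most of them made from polyadenylated mRNAs, gave 1 call in each line among 11 tested genes. Of all tested genes, 2.97% passed in D425 and 1.51% in HD-MB03. H1-10, a linker variant, measured 41.6, 36.1 and 45.65 CPM in the D425 controls and 79.2, 125 and 84.5 CPM in the shCRX libraries, so it rose (1.23 ± 0.23 SE, edgeR adjusted p = 0.0137). In HD-MB03 it fell from 319 and 254 CPM in the controls to 49.5 and 71.6 CPM in the libraries labelled shCRX (-2.24 ± 0.28 SE, edgeR adjusted p = 0.00302). H3-3B, which encodes the replacement histone H3.3, had differences of -0.06 ± 0.19 in D425 and -0.29 ± 0.23 in HD-MB03 (SE). Between the lines 7 of the 11 were lower in D425 and 0 higher, against 21.6% lower and 24.4% higher among all tested genes. The list's median in HD-MB03 was 0.12. Over the 22 replication-dependent members it was -2.23, and over the 14 that passed the filter without the HD-MB03 controls it was -1.05. The difference between the lists was not tested.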

How the data were processed

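Poly(A)-enriched RNA of 10 libraries was sequenced. The authors deposited raw read counts per gene, 1 file per library; the submitters' processing notes name HISAT2, HTSeq, bcl2fastq and DESeq2 and the build GRCh37 (hg19). Versions, annotation and strand setting are not given in the sources used here. From each file, the 5 summary entries stayed out of library sizes; 4.538% to 30.9% of reads did not align. Identifiers were matched to symbols, 1 member through its older symbol. Stem-loops and extents came from GENCODE 29 and RefSeq GRCh38.p14, another build than that of the files. The tests were run in edgeR 4.0.16 under R 4.3.3 (TMM, filterByExpr, robust quasi-likelihood fit of 4 group means of line and arm, 6 residual degrees of freedom, biological coefficient of variation 26.01%), fitted and adjusted over 16006 genes. They were first run on simulated data with less spread than was fitted here and no difference between the lines. That run does not show how well the tests perform on these libraries. Intervals and floors (3 counts) cover counting error alone. No libraries within a group were identical or agreed within sampling noise. D425 parental and shCRX numbers did not pair the libraries (correlation of deviations 0.019), so no block was used. Alternatives were scaling, filter, depth, GC content and length, controls, each library left out, DESeq2 1.42.0 and limma-voom 3.58.1. Every tested member could be named, as could the called genes of a list or, with fewer than 2 called, its gene with the highest mean. Members and lists were chosen with earlier results of these data known.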

Additional observations from a re-analysis of the deposited data

Results flagged for a closer look

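The effect of the hairpin libraries against controls differed between the lines, by edgeR's test of the difference itself, in 5 of the 22 tested members. All 5 passed as higher, against 2.67% of all tested genes. The values below are the D425 effect minus the HD-MB03 effect on the log2 scale. H2BC18 stood at 5.8513, with edgeR adjusted p = 0.0102; it lost the call in 5 of 20 alternatives, with adjusted p up to 0.246 and values of 4.60 to 7.90. H3C4 stood at 5.0776 with adjusted p = 0.0422; it lost the call in 12 of 19 alternatives (up to 0.392), and its counts may belong to near-identical genes. H4C8 stood at 4.6973 with adjusted p = 0.0484 and lost the call in 12 of 20 (up to 0.482). H2AC20 stood at 6.5114 with adjusted p = 0.0443, on 2 counts in the D425 controls, and lost the call in 12 of 19 (up to 0.4695). H1-5 stood at 8.691 with adjusted p = 0.0375 and lost the call in 8 of 14 (up to 0.121), but both HD-MB03 libraries labelled shCRX hold 0 counts, so this fitted value depends on the prior count and is no bound. In all 5 genes both HD-MB03 libraries labelled shCRX lay below both controls, against 21.8% of all tested genes. H1-5, H2AC20 and H3C4 passed the filter through those controls alone, and the 5 were chosen by the difference itself. Their order is therefore not support for a direction. The HD-MB03 controls also had 26.41% and 30.9% of reads that did not align, and the part of that in these differences was not tested.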

How the results depend on the processing

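In D425 the count of called members was 0 in every alternative run, with the replicate block (0) and with no replicate block (0) on the 4 numbered libraries; the block changed no call. The D425 median changed sign, from 0.35 to -0.24 without D425 shCRX replicate 1 (-0.24 to 0.59 over the libraries left out), -0.34 with vector libraries alone as controls, -0.12 with the replicate block and -0.011 with no replicate block. In HD-MB03, 6 calls became 12 with no filter, 1 with parental and 0 with vector libraries alone as controls, and 0 to 8 with 1 library left out. In the difference, 5 became 9 with DESeq2, 10 with no filter (9 higher, 1 lower), 2 at equal depth, 1 with the GC content and length trend removed, 0 with either control alone, and 0 to 5 with 1 library left out. In the mean, 0 became 3 with no filter and 1 each with DESeq2, with unaligned reads added to the library size and with the GC trend removed. Between lines, 18 became 11 with vector libraries alone, 9 in library numbers over 100, 9 with the HD-MB03 controls left out (chosen after seeing the data), and 14 to 19 with 1 library left out. The HD-MB03 value of H2BC12 turned from -0.13 to 0.15 without the parental library, 0.06 without shCRX replicate 1 (-0.35 to 0.15 over the libraries left out), 0.11 with the vector control alone, 0.44 with unaligned reads in the library size and 0.18 with the GC trend removed. Adding unaligned reads moved the median of all genes in HD-MB03 from 0.10 to 0.66 and that of the members from -2.23 to -1.65. Where a value changed, the cause was not tested, other than that removing the filter tested 30 members and thinning tested 14. Depth limits the HD-MB03 controls most: 3 counts there are 1.44 and 1.53 CPM.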

Other observations

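H2AX, the variant phosphorylated at DNA breaks, is known to be made from both a stem-loop mRNA and a polyadenylated one, and it was singled out after its values were seen. It measured 229.7 and 169 CPM in the HD-MB03 controls and 52.9 and 80.2 CPM in the libraries labelled shCRX. In D425 it measured 46.2, 76.5 and 29.8 CPM in the controls and 49.4, 181 and 100.6 CPM in the shCRX libraries, so the D425 arms overlapped and the HD-MB03 arms did not. Its differences were -1.58 ± 0.54 in HD-MB03 and 1.11 ± 0.44 in D425 (SE), and neither passed (edgeR adjusted p = 0.175 and 0.211). The difference of these effects, 2.70 ± 0.70 (SE), did not pass either (edgeR adjusted p = 0.0538).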
